A study of Arabidopsis thaliana with 12 samples.

Results

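The set described here comprises 74 probe sets that were higher in light-grown than in dark-grown control seedlings and that stood higher in darkness when the gene MINI ZINC FINGER 1 (MIF1) was overexpressed. The array holds 22746 probe sets once control probe sets are left out. Levels are log2(intensity + 7) throughout, and group means of 3 arrays chose the members: dark vector at least 1 below light vector, dark MIF1OE at least 1 above dark vector, and a light vector mean of at least 6. These limits were met by 82 probe sets. Of these, 8 were left out by name because they belong to wall, peroxidase, cytochrome P450 and other families that the definition sets aside. The 74 members comprise 31 that name a single gene, 1 that names several and 42 that are unnamed here, so the families set aside could not be looked for among the unnamed ones. The suffix of 5 members (_s_at) and of 1 (_x_at) marks probes shared between similar transcripts.

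A seedling that germinates in darkness grows by skotomorphogenesis, with a long hypocotyl, closed cotyledons and a restrained root, until light received by phytochromes and cryptochromes switches it to photomorphogenesis. Many genes of plastids, metabolism, defence and root growth are more active after that switch. MIF1 is a small protein with a zinc finger like that of the zinc finger homeodomain factors but without the homeodomain, and it is known to bind such factors and to alter responses to several hormones.

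The seedlings were Arabidopsis thaliana of ecotype Columbia in the T2 generation, 7 days old and used whole. Control seedlings carried an empty hygromycin-resistance vector in 3 independent lines (#1, #4 and #7), which are replicates 1 to 3. MIF1OE seedlings carried MIF1 behind the constitutive 35S promoter. Line #124 gave their replicates 1 and 2 and line #127 their replicate 3, so 2 of 3 samples share a transformation event. All groups were stratified for 2 days at 4 degrees C, grew at 22 degrees C under selection with hygromycin at 50 µg/mL, and only resistant seedlings were harvested. Light-grown groups were kept in cycles of 16 h light and 8 h dark at 70 to 120 µmol per square metre and second, and dark-grown groups had 2 h of light to start germination. Each of the 4 groups (light vector, light MIF1OE, dark vector, dark MIF1OE) was measured on 3 Affymetrix ATH1 arrays.

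Arrays within a group correlated with r between 0.922 and 0.962, lowest among the light vector arrays. The transgene could not be checked by name, since MIF1 itself is not among the named probe sets. Of 7 measured photosystem and Calvin cycle genes, 6 were lower in dark than in light vector seedlings (limma, adjusted p under 0.05). The share over all probe sets tested was 13.6%. In RNA from whole seedlings, fewer cells of a type and less RNA per cell cannot be told apart.

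The members were low in dark vector seedlings and higher in the other 3 groups. Their median log2 level was 7.74, 7.43 and 7.44 on the light vector arrays and 5.80, 5.38 and 5.57 on the dark vector arrays. On the dark MIF1OE arrays it was 7.03, 7.54 and 7.44. These 3 groups had to be ordered this way, since they chose the members. The light MIF1OE arrays, which the choice did not use, had median log2 levels of 7.44, 7.77 and 7.66, against 7.43 to 7.74 in light vector seedlings. The median over all 15922 probe sets tested stayed between 6.90 and 7.03 on every array.

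**Figure D1:**
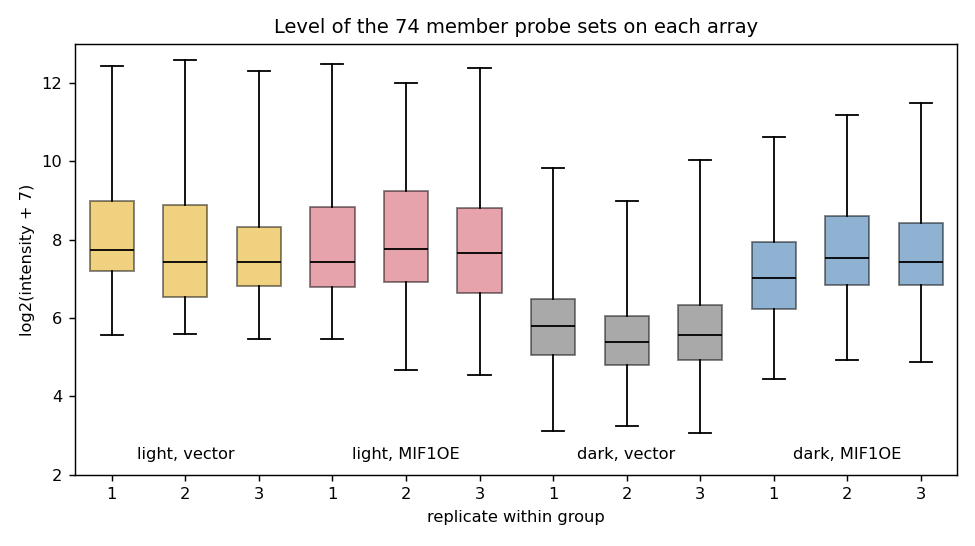
Log2(intensity + 7) of the 74 members on each of the 12 arrays (box: quartiles, line: median, whiskers: lowest and highest member). The 3 dark vector arrays have medians of 5.38 to 5.80, and the other 9 arrays have medians of 7.03 to 7.77.

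Most light-induced transcripts did not take part. In all, 1191 probe sets met the limits on light induction and on light level. Of these, 1013 differed by less than 1 on the log2 scale between dark MIF1OE and dark vector seedlings, 96 were at least 1 lower, and 82 were at least 1 higher. Of all 15922 probe sets tested, 695 were at least 1 lower and 580 at least 1 higher. The dark vector mean, which had to be low among the 1191, is also part of this difference. The dark MIF1OE minus dark vector difference of the members ran from 1.00 to 4.42 with a median of 1.54, against a median of 0.00 over all probe sets tested. All 3 dark MIF1OE arrays lay above all 3 dark vector arrays for 67 of the 74 members, where 18.3% of all probe sets tested did so. In the limma fit 55 members had an adjusted p under 0.05 in that direction, where the share over all probe sets was 6.14%. Light vector arrays lay above all dark vector arrays for 70 members, where 19.0% of all probe sets did so. Between dark and light vector seedlings 69 members had an adjusted p under 0.05 downward, where the share was 13.6%. The members were picked on these differences, so the counts describe the set and test nothing.

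How close the members came to their level in light varied. The dark MIF1OE mean was above the light vector mean for 26 members and below it for 48. It lay within 0.5 of the light vector mean for 35 members, more than 0.5 above it for 10 and more than 1 below it for 16. Every light vector array was above every dark MIF1OE array for 13 members (19.2% of all probe sets), and the opposite held for 4 (24.2%). As a share of the log2 gap between light and dark vector seedlings, the dark MIF1OE difference had a median of 81.5% and ran from 33.4% to 158%. Both differences in this share contain the dark vector mean, and the limits required each to be at least 1. All 3 groups entered the choice, so the values in this paragraph describe the set and test nothing.

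**Figure D2:**
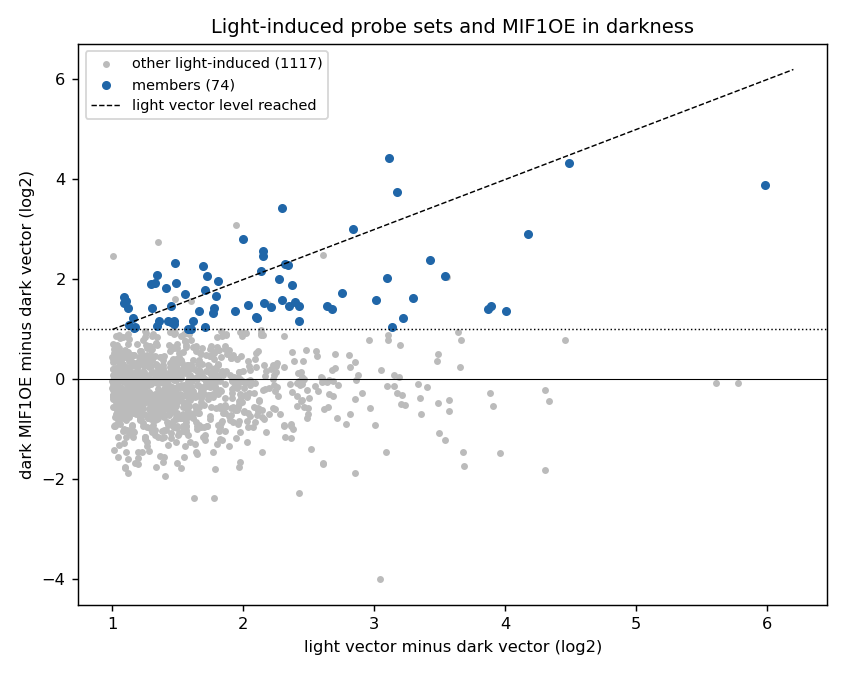
Each point is 1 of 1191 light-induced probe sets, with its light induction in vector seedlings (x, log2 difference) and the MIF1OE difference in darkness (y, log2 difference). Blue points are the 74 members, the dotted line is the limit of 1, and on the dashed line the dark MIF1OE mean equals the light vector mean; 26 members lie above it.

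Members just inside the limits had values close to probe sets just outside. For the dark minus light limit in vector seedlings, PDF2.5 and 252911_at had log2 differences of -1.09 and -1.09, and 256890_at and AT1G14960, just outside, had differences of -0.9991 and -0.99. For the dark MIF1OE limit, AT3G53960 and PAC had log2 differences of 1.00 and 1.02, and 257730_at and 248839_at stood outside with differences of 0.99 and 0.98. For the light level, AT1G57590 and GH9C1 had light vector means of 6.08 and 6.40, and 246652_at and AT5G10130 had means of 5.98 and 5.96.

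Cell wall enzymes numbered 3, and in each the dark groups did not overlap and the dark MIF1OE mean was above the light vector mean. The choice of members favours dark groups that do not overlap, which 67 members in all had. GH9C1, an endo-beta-1,4-glucanase that cuts wall glucans, had log2 levels of 4.88, 5.61 and 4.84 in dark vector seedlings and of 6.55, 7.39 and 7.15 in dark MIF1OE seedlings. Its light vector levels were 7.27, 6.05 and 5.89 and its light MIF1OE levels 5.72, 6.26 and 5.66. The log2 difference in darkness was 1.92 (SE 0.36, n = 3 per group, 3.78-fold in intensity + 7). Every light MIF1OE array lay below every dark MIF1OE array. AT5G04960, of the pectin methylesterase and inhibitor family that adjusts pectin, had log2 levels of 4.31, 5.37 and 4.54 in dark vector and of 6.05, 7.57 and 6.84 in dark MIF1OE seedlings. Its light levels overlapped between the genotypes, at 7.26, 5.75 and 6.39 in vector and 6.22, 6.68 and 5.71 in MIF1OE seedlings. AT1G57590, a pectin acetylesterase, moved likewise, from log2 levels of 5.22, 4.65 and 3.91 to levels of 6.40, 7.15 and 6.03. The dark MIF1OE means of the 3 genes were above their light vector means by log2 differences of 0.62, 0.35 and 0.45, which are within the spread of their light vector arrays (SD 0.75, 0.75 and 0.53).

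The defence-type members were 6 genes for small secreted or pathogen-response proteins, and none of them overlapped between the dark groups. The dark difference chose the members, and 67 of them in all had no such overlap, so this is no trait of the 6 genes. AT2G43530, a small cysteine-rich protein of the plant defensin and trypsin inhibitor type, had log2 levels of 6.03, 5.09 and 6.38 in dark vector and of 7.67, 7.77 and 8.99 in dark MIF1OE seedlings. In light its levels were 7.98, 8.11 and 8.37 in vector and 8.84, 9.26 and 9.59 in MIF1OE seedlings, so the genotypes were apart in light as well. That light difference of 1.08 (SE 0.38) did not pass (limma adjusted p = 0.260). AT2G43620, of the chitinase family, had log2 levels of 5.79, 4.94 and 5.90 in dark vector and of 7.38, 7.25 and 8.87 in dark MIF1OE seedlings. The line 127 array was the highest for both genes in darkness, and without it their log2 differences were 1.89 and 1.77 in place of 2.31 and 2.29.

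AT1G73620, a thaumatin-like protein, was even across the dark MIF1OE arrays, at log2 levels of 7.57, 7.5 and 7.66 against 6.07, 5.46 and 5.43 in dark vector seedlings. PDF2.5, a plant defensin, had log2 levels of 5.44, 5.39 and 5.39 in dark vector and of 6.85, 7.19 and 7.15 in dark MIF1OE seedlings. In light PDF2.5 was at 6.60, 5.98 and 6.89 in vector and at 6.22, 5.92 and 5.90 in MIF1OE seedlings, so that its dark MIF1OE levels were above all light MIF1OE levels. AT2G38870, a protease inhibitor of the potato inhibitor I type, and AT1G72900, a TIR-domain protein of the resistance gene class, had log2 differences in darkness of 1.05 (SE 0.26) and 1.43 (SE 0.37). AT1G72900 was spread in light vector seedlings (log2 levels 7.08, 8.44 and 6.43) and tight in the dark groups, at 6.18, 6.29 and 6.12 in vector and 7.61, 7.52 and 7.75 in MIF1OE seedlings.

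AT4G12490 and AT4G12500, lipid-transfer-like proteins with a proline-rich part, were uneven across the dark MIF1OE arrays. AT4G12490 had log2 levels of 6.77, 5.91 and 6.43 in dark vector seedlings, of 8.75 and 8.32 in line 124 and of 11.08 in line 127. AT4G12500 had levels of 5.08, 4.85 and 5.04 in dark vector seedlings, of 5.88 and 6.08 in line 124 and of 8.67 in line 127. Line 127 was thus far above line 124 in darkness for both genes. Without that array the log2 differences of 3.01 and 1.89 (SE 0.76 each) were 2.16 and 0.99, so AT4G12500 would have missed the limit. In light, line 127 was also the highest MIF1OE array (log2 levels 10.33 and 8.10), and vector line 4 was the highest light vector array (10.80 and 8.91).

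Metabolic enzymes made up another 6 members, and 5 of them stayed below their light vector mean. AT1G73600, a methyltransferase of phosphocholine synthesis, had log2 levels of 5.49, 5.18 and 5.55 in dark vector and of 6.56, 8.77 and 8.04 in dark MIF1OE seedlings, against 10.02, 8.80 and 7.69 in light vector seedlings. Its log2 difference in darkness was 2.38 (SE 0.59), or 69.5% of the gap to light. AT4G09760, of the choline kinase family that acts in the same lipid pathway, had log2 levels of 5.62, 6.03 and 6.12 in dark vector and of 7.44, 6.84 and 6.73 in dark MIF1OE seedlings.

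The short-chain dehydrogenases AT2G29320 and AT2G29340, related to tropinone reductase, differed in how apart their groups were. AT2G29340 had log2 levels of 8.07, 7.51 and 6.97 in dark vector and of 9.15, 8.80 and 9.73 in dark MIF1OE seedlings, with no overlap. AT2G29320 had levels of 5.80, 4.83 and 4.4 and of 6.58, 5.63 and 7.25, which overlapped. GSTU20, a glutathione transferase linked to aliphatic glucosinolate synthesis, overlapped too, at 7.13, 5.91 and 5.89 against 7.17, 8.43 and 7.06. It was spread in light, at log2 levels of 10.78, 7.89 and 9.92 in vector and of 7.60, 10.15 and 7.68 in MIF1OE seedlings. The glycosyltransferase AT2G36970 had a log2 difference of 1.05 in darkness (SE 0.22).

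Transport and membrane members numbered 5. AT1G68570 (NPF3.1), of the nitrate and peptide transporter family, had log2 levels of 6.14, 5.48 and 5.57 in dark vector and of 7.17, 7.06 and 7.23 in dark MIF1OE seedlings, close to its light vector levels of 7.09, 6.53 and 7.48. AT3G53960 of the same family was the member nearest to the limit in darkness, and its log2 difference was 0.82 without dark MIF1OE replicate 1. AT4G30650 and AT4G30660, small hydrophobic membrane proteins of the cold- and salt-responsive RCI2 type, had log2 differences of 2.02 (SE 0.53) and 1.17 (SE 0.24) in darkness. AT4G30650 was spread in dark MIF1OE seedlings, at log2 levels of 8.00, 9.42 and 6.90. AT2G16660, a membrane carrier of the major facilitator type, was spread in light, at log2 levels of 7.58, 10.48 and 7.09 in vector and of 10.67, 8.54 and 8.82 in MIF1OE seedlings.

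AT1G23130, related to the Bet v 1 and major latex proteins, had the largest light induction of the set. Its log2 levels were 10.48, 10.36 and 10.73 in light vector, 10.22, 10.08 and 10.32 in light MIF1OE, 4.71, 3.25 and 5.64 in dark vector, and 8.81, 7.44 and 9.0 in dark MIF1OE seedlings. The dark difference of 3.88 (SE 0.51, 14.7-fold in intensity + 7) still left it 2.1 below light vector on the log2 scale. Its dark vector mean of 4.54 was dim beside a median of 7.02 over all probe sets tested. No detection call was used, so the size of this fold is uncertain. PAC (PALE CRESS), a plastid protein needed for chloroplast development, had the smallest SE of the members, with levels of 5.25, 5.07 and 4.99 in dark vector and 6.06, 6.09 and 6.21 in dark MIF1OE seedlings on the log2 scale. Its light levels were 6.71, 6.43 and 6.98 in vector and 7.12, 7.16 and 7.17 in MIF1OE seedlings, so the genotypes were apart in light too, by 0.44 (SE 0.16, limma adjusted p = 0.277).

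AT1G23750, with an OB-fold that binds nucleic acid, reached log2 levels of 6.76, 7.59 and 6.92 in dark MIF1OE seedlings from 5.81, 5.18 and 5.57. AT3G15570, of the NPH3 family that includes a phototropism protein, ran from 3.52 to 6.21 in dark vector seedlings and overlapped with dark MIF1OE seedlings (6.13 to 6.68). AT5G50740, a metal-binding protein, and AT3G16660, of the Ole e 1 pollen protein family, had log2 differences of 1.24 (SE 0.45) and 1.17 (SE 0.38) in darkness. A second probe set of AT5G50740 is not a member. It was also light-induced (dark minus light log2 difference of -1.71 in vector seedlings), but its dark MIF1OE minus dark vector difference was only 0.49. AT1G65500, AT4G14020 and AT5G21060, to which no role is given here, had differences of 2.09, 1.23 and 1.16. Of these, AT1G65500 had dark MIF1OE log2 levels of 7.98, 7.89 and 8.26, each above all 3 light vector levels (7.64, 7.32 and 6.95).

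**Figure D3:**
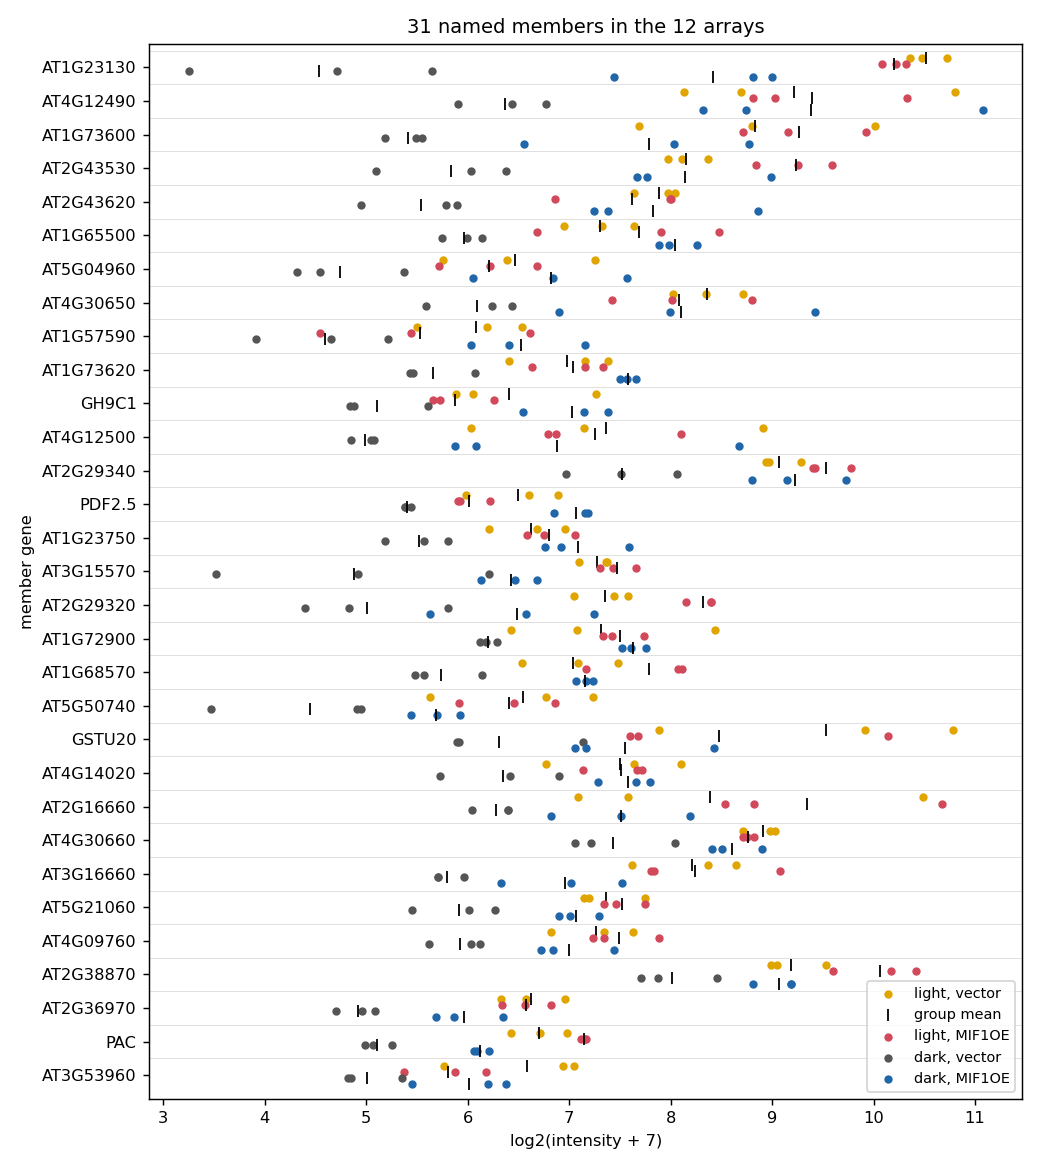
Log2(intensity + 7) of the 31 named members on all 12 arrays (points: arrays, colour: group, black bars: group means), ordered by the dark MIF1OE minus dark vector difference from 3.88 (AT1G23130) to 1.00 (AT3G53960). Dark vector points lie to the left of the other groups for most genes, and AT4G12490, AT4G12500, GSTU20 and AT2G16660 show the widest spread within groups.

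Among the 42 unnamed members, 251226_at and 252618_at had the largest differences of the whole set. 251226_at had log2 levels of 3.41, 6.40 and 3.45 in dark vector and of 8.62, 8.92 and 8.98 in dark MIF1OE seedlings, above its light vector levels of 7.85, 7.30 and 7.43. 252618_at had levels of 5.11, 4.29 and 5.03 and of 8.34, 9.18 and 9.89 in the same groups, and of 10.85, 9.68 and 7.35 in light vector seedlings.

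The next comparison asked whether MIF1OE also altered the members in light. The light MIF1OE arrays took no part in the choice, but the light vector arrays did, and the choice favours members that are high there. The light MIF1OE minus light vector difference had a median of 0.01 on the log2 scale over the members and of -0.01 over all probe sets tested. It was above 0 for 38 members and below 0 for 36, with 48 within 0.5 of 0. In the limma fit over 15922 probe sets 1 member passed at an adjusted p under 0.05, upward, where 0.659% of all probe sets did so, and 0 members passed downward, where 0.327% did. At an unadjusted p under 0.05 there were 6 higher and 3 lower members, beside 5.97% and 5.55% of all probe sets, so these counts lie near the background.

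The member that passed is the unnamed 249775_at, with log2 levels of 7.27, 7.24 and 5.75 in light vector and of 9.31, 9.24 and 8.77 in light MIF1OE seedlings (log2 difference 2.35, SE 0.39, adjusted p = 0.0135). Over the alternative settings its adjusted p went up to 0.0941, and the call was lost without light MIF1OE replicate 1. Groups that did not overlap in light were found upward for 8 members, where the share of all probe sets was 6.83%, and downward for 3, where it was 7.01%.

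The last comparison asked whether the members still differed between dark and light in MIF1OE seedlings. Here the dark MIF1OE arrays entered the choice, which favours members that are high there. The dark minus light difference had a median of -0.57 on the log2 scale in MIF1OE seedlings, against 0.09 over all probe sets tested, and of -2.02 in vector seedlings, where it was part of the choice. In MIF1OE seedlings it was below 0 for 47 members and above 0 for 27. The limma fit called 13 members lower in darkness, where 11.8% of all probe sets were called, and 5 higher, where 12.4% were called. With the source of the seedlings entered as a fixed replicate block, 28 members were called. Of these 24 were lower, where 13.8% of all probe sets were called in the same fit, and 4 were higher, where 15.7% were. In all 17 of the 18 calls were among the 28. All dark MIF1OE arrays lay above all light MIF1OE arrays for 7 members (23.3% of all probe sets) and below them for 25 (17.5%).

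The 5 named members called lower in dark than in light MIF1OE seedlings were AT2G29320 (log2 difference -1.83, SE 0.39, limma adjusted p = 0.00487), AT1G23130 (-1.79, SE 0.51), AT3G16660 (-1.28, SE 0.38), PAC (-1.03, SE 0.16) and AT2G38870 (-1.0, SE 0.26). In the same order, their light MIF1OE minus light vector differences were 0.96, -0.31, 0.02, 0.44 and 0.88, and none passed in limma. Their dark MIF1OE minus light vector differences were -0.87, -2.10, -1.26, -0.585 and -0.12. A higher light MIF1OE level is thus part of some of these calls. The calls of AT2G29320 and PAC held under all alternative settings. That of AT1G23130 ended with a pseudocount of 1 and without light MIF1OE replicate 1 or 3, dark MIF1OE replicate 2 or line 127. That of AT3G16660 ended when the fit held the MIF1OE arrays alone and without light MIF1OE replicate 3 or dark MIF1OE replicate 1 or 2, and that of AT2G38870 without light MIF1OE replicate 3, dark MIF1OE replicate 2 or line 127. The 2 named members called higher in darkness, the opposite of their order in vector seedlings, were PDF2.5 (1.05, SE 0.21, limma adjusted p = 0.00360) and GH9C1 (1.15, SE 0.36, adjusted p = 0.0355). PDF2.5 held under all settings, and GH9C1 was lost with no filter on low levels and without any of light MIF1OE replicates 1 and 3, dark MIF1OE replicates 2 and 3 and line 127. The unnamed 251226_at, 252833_at and 264567_s_at were also called higher, by 2.00, 1.12 and 0.92, the last not with the replicate block. The call of 251226_at was lost in 8 of 23 settings, with adjusted p up to 0.2 in limma. When light MIF1OE replicate 3 (line 127) was left out, the 18 calls became 9 (2 higher, 7 lower).

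**Figure D4:**
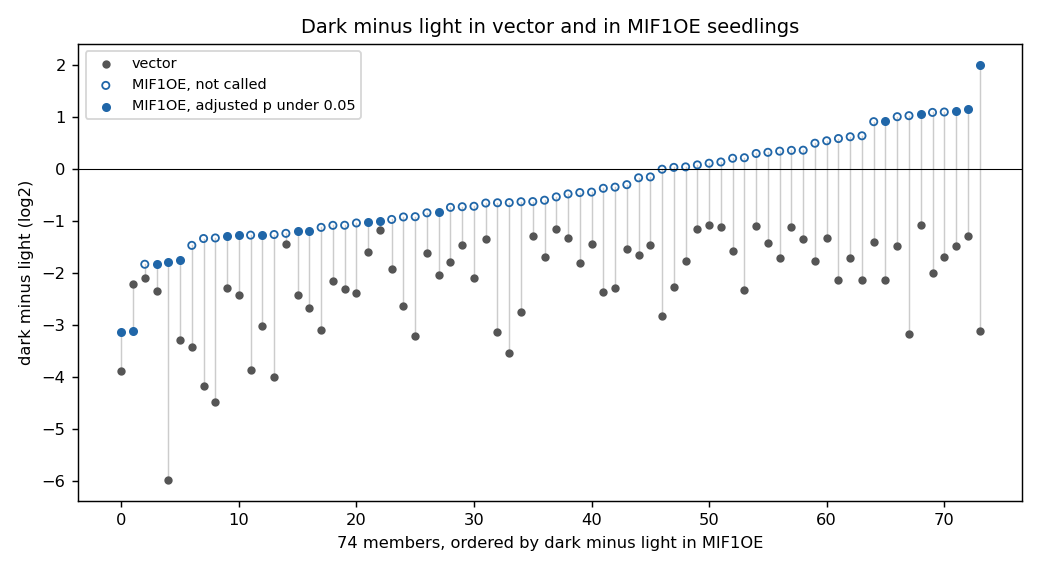
Dark minus light difference (log2) of each of the 74 members in vector seedlings (grey) and in MIF1OE seedlings (blue, filled where limma's adjusted p is under 0.05), joined by a line. All grey points lie below -1, whereas the blue points run from -3.14 to 2.00, with 27 above 0.

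Single arrays and lines were examined in turn. In darkness the line 127 array was above both line 124 arrays for 34 members, between them for 27 and below both for 13. In light it was above both for 20, between for 21 and below both for 33. These counts were not set against all probe sets. The dark medians of the members were 7.03 and 7.54 on the line 124 arrays, and that of line 127 lay between them at 7.44. The limits were also applied without 1 array at a time, and the array left out was then set against the opposite group. On the dark MIF1OE arrays so left out, the probe sets chosen without them had median log2 differences from dark vector seedlings of 1.09, 1.76 (both line 124) and 1.70 (line 127). On the dark vector arrays of lines 1, 4 and 7 the median differences from dark MIF1OE seedlings were -0.92, -1.88 and -1.34, and line 1 was the least apart. The opposite group had itself entered each choice, low or high as the limits ask, so these medians are descriptions that would lie away from 0 in any case.

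No member's dark difference fell to 0 when any dark array was left out, and the lowest was 0.69, of 249866_at without dark MIF1OE replicate 2. For 25 members it fell under the limit of 1. The choice of members used these same dark arrays, so these values describe the set and test nothing.

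Listed genes of the processes that the members touch were few. Of 41 root hair genes, 2 had a named probe set that was tested. Both were called higher in dark MIF1OE than in dark vector seedlings, where 6.14% of all probe sets were. The 2 genes are the root hair expansins EXPA7 (log2 difference 1.56, SE 0.26) and EXPA18 (1.53, SE 0.31), which loosen the wall of growing hairs. Their summed intensity ran from 42.8 to 56.7 in dark vector and from 95.2 to 219 in dark MIF1OE seedlings, and from 91.9 to 170 and 92.7 to 104 in light vector and light MIF1OE seedlings. EXPA7 met the limits of the set itself, so its place in this sum was fixed by them, whereas EXPA18 did not (dark minus light log2 difference of -0.79 in vector seedlings). The part of root hair genes in the difference of the cell wall members was not tested. The 1 measured root marker of 22, the beta-glucosidase PYK10, had a log2 difference of 0.15 (SE 0.16) in darkness.

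No listed green tissue gene was called higher in dark MIF1OE than in dark vector seedlings. Of 7 measured photosystem and Calvin cycle genes of 28, 1 was lower and 0 were higher in dark MIF1OE than in dark vector seedlings (median log2 difference -0.55), and none of the 7 is a member. Of 3 measured chlorophyll synthesis genes of 10, 2 were lower. Among all probe sets tested, 6.75% were called lower and 6.14% higher in dark MIF1OE than in dark vector seedlings. In darkness the summed intensity of the photosystem and Calvin cycle list ran from 5838 to 10494 in vector and from 4828 to 7542 in MIF1OE seedlings. Of 4 measured aliphatic glucosinolate genes of 18, 1 is a member (GSTU20), 3 were lower in dark than in light vector seedlings, and 0 were called in darkness between the genotypes. The 3 include GSTU20 and BCAT4, which both met the limits of the set, so the limits fixed their lower level in darkness. Of all probe sets, 13.6% were called lower in dark than in light vector seedlings. The light signalling list had 2 measured genes of 10 with 0 called in either genotype contrast, and the guard cell, xylem, nitrate assimilation and cell cycle lists had none measured.

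The named members lie on all 5 nuclear chromosomes (10, 8, 3, 6 and 4 genes on chromosomes 1 to 5), and 5 pairs lie within 10 protein-coding genes of each other in the RefSeq gene order. AT4G30650 and AT4G30660 are adjacent, and AT4G12490 with AT4G12500 and AT2G29320 with AT2G29340 are 2 positions apart. Each of these pairs belongs to a family of similar genes, and cross-hybridisation between their probe sets was not tested. AT1G73600 and AT1G73620 are 4 positions apart and AT2G43530 and AT2G43620 are 10 positions apart, and the genes of these pairs belong to different families.

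Most genes beside the members were not called between the dark groups. Of 274 genes within 5 positions of a named member, 96 were measured, with a median log2 difference of 0.04 between dark MIF1OE and dark vector seedlings. The limma fit called 8 of them higher and 3 lower, beside 6.14% and 6.75% of all probe sets. The dehydrogenase cluster on chromosome 2 went several ways: TRI (AT2G29330), which lies between the members AT2G29320 and AT2G29340, was higher by 0.90 in dark MIF1OE seedlings (limma adjusted p = 0.0287), yet higher by 1.19 in dark than in light vector seedlings. AT2G29290 of the same cluster was lower by log2 -2.28 in dark MIF1OE seedlings (limma adjusted p = 0.00972), and AT2G29310 and AT2G29360 had differences of -0.33 and -0.29. AT3G16670, next to AT3G16660, had a log2 difference of 0.96 (adjusted p = 0.0819).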

How the data were processed

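Total RNA was hybridised to 12 single-colour arrays. The authors deposited 1 linear intensity per probe set and array, and GCOS is the tool named, per the submitters' processing notes. Its version was not stated. The authors' scaling gave each array a mean of 150.01 after trimming 2% at each end and was kept. No detection calls were used, and the number of arrays limits the precision. No pair of the 66 pairs of arrays was identical.

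Levels are log2(intensity + 7), which understates changes at low intensity. Controls (64) and probe sets under the 30th percentile of the mean were left out, so 15922 were tested, all 74 members among them. Contrasts between the 4 group means were fitted to all 12 arrays by lmFit and eBayes of limma 3.58.1, run in R 4.3.3. Adjusted p-values are Benjamini-Hochberg over all probe sets tested, threshold 0.05, and SE is limma's moderated standard error over all 4 groups. The code of the fit and of the limits was run on simulated data with large built-in differences. That run does not show how the limits behave in these data. Replicates are biological by the labels. Figures used matplotlib 3.10.9.

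Gene names come from the annotation of the platform and from the RefSeq gene table of TAIR10.1 (13436 probe sets matched). That table also gave the loci, the chromosomes and the gene order. Of 22746 probe sets, 8730 are unnamed here. AT1G30870, AT4G26010 and AT1G23410 were placed in their families from general knowledge. Lists name each gene's brightest probe set. Sequences of members are not used here.

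Members and lists were chosen with earlier results of these data known. The rule for named genes took the 10 named members with the largest dark difference, the 6 with the highest light vector mean, the 6 whose dark MIF1OE mean came nearest to or furthest above it, those called in light, list and family members, the 2 probe sets on each side of each limit and the 2 largest unnamed rises. The other named members are given as well, since 31 could be shown in full. Light and dark samples were paired by the line in the labels and, within line 124, by replicate number. That equal replicate numbers of line 124 mark a shared source is an assumption that was not tested. The deviations of the 6 pairs from their group means correlated with r between 0.233 and 0.339, so source was entered as a replicate block. The 2 line 124 sources were separate blocks. The other alternatives were pseudocount, scaling, floor, filter, moderated trend, fewer arrays and leaving out arrays.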

Additional observations from a re-analysis of the deposited data

Results flagged for a closer look

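In 3 members every array of MIF1OE seedlings lay above vector seedlings in darkness and below them in light. The darkness order was largely fixed by the choice of members, and the light order was found in 7.01% of all probe sets, so 3 of 74 members is no more than the background. AT1G23130 differed by log2 -0.31 in light and 3.88 in darkness, 264567_s_at by -0.50 and 2.57, and 258920_at by -0.39 and 1.72. Whether these differences between light and darkness exceed chance was not tested, because the darkness difference chose the members. None of the 3 light differences passed in limma.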

How the results depend on the processing

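The set held 46 probe sets with a pseudocount of 32 (42 of the 74 among them), and 67 to 109 when single arrays were left out of the choice, the most without dark vector replicate 1. The other scalings, pseudocount and floor gave 78 to 94, and line 124 alone 72. The 1 call in light became 0 with line 124 alone and when the fit held the 6 light arrays alone, and was 0 to 1 when single arrays were left out. With source as a random replicate block it was 1. The 18 calls of dark against light in MIF1OE seedlings became 10 with line 124 alone (1 higher, 9 lower), 28 with only the 6 MIF1OE arrays (6 higher, 22 lower) and 28 with source as a fixed replicate block (4 higher, 24 lower). They ran from 9 to 24 without single arrays, with 2 to 7 higher. The cause was not tested, apart from fewer arrays in some fits. No named member's call changed direction in any setting. Dim members are the least certain: pseudocounts move their differences most, and without detection calls their background is unknown.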

Other observations

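The 8 probe sets that met the same limits but were left out by name were the peroxidases AT1G30870 and AT4G26010, HRGP1, the jacalin lectin AT1G52060, BCAT4, EXPA7, CYP71B26 and the ubiquitin and ribosomal protein fusion AT1G23410. Their dark MIF1OE minus dark vector differences ran from 1.51 (CYP71B26) to 3.09 (AT1G30870) on the log2 scale. Their light MIF1OE minus light vector differences were above 0 for CYP71B26 (0.48) and AT1G23410 (0.05) and below 0 for the other 6, down to -0.82 (AT4G26010). These values chose the probe sets in darkness and carry no test.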
